A study of Rattus norvegicus with 35 samples.

Results

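Kupffer cells are the resident macrophages of the liver, and this account follows 10 genes that mark them or macrophages in general: Clec4f, Cd163, Marco, Cd68, Csf1r, Adgre1, Vsig4, Cd5l, C1qa and C1qb. A member was measured through probe sets annotated with its symbol alone, and where a gene had several, through the one with the highest mean over all arrays. This gave 8 measured members with 9 probe sets, of 14217 genes with such a probe set and 31042 probe sets tested in all. Marco, a scavenger receptor, and Vsig4, a receptor for complement fragments, had no probe set of their own symbol alone and are not analysed here.

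The arrays measured liver RNA from male Harlan Sprague Dawley rats that were 7 weeks old when dosing began. The rats were gavaged on 5 consecutive days with TBB (2-ethylhexyl-2,3,4,5-tetrabromobenzoate, a brominated flame retardant) in corn oil at 5 ml/kg, and were killed 1 day after the last dose. The groups were corn oil vehicle (5 arrays) and TBB at 0.05, 0.55, 5.50, 55 and 550 mg/kg (6 arrays each), and every group was fed the NTP-2000 diet and received the same oil. RNA came from the left lobe and had an RNA integrity number of at least 7.0. All 35 arrays were 3' expression arrays with 1 colour, and values are on the log2 scale after robust multi-array averaging (RMA). The labels do not say that each array came from its own rat, so the p-values reflect only how far these arrays differ, and part of that may be technical. The number of arrays limits the precision.

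Kupffer cells line the liver sinusoids, where they take up particles, worn red cells and bacterial products from portal blood. They depend on signals through the CSF1 receptor, and the transcription factors PU.1 and those of the MAF family are known regulators of macrophage genes. Whole liver is mostly hepatocytes by mass, so these genes report a minority population. In such bulk samples, fewer macrophages and less marker RNA per macrophage cannot be told apart.

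The promoters of the 4 members whose levels followed those of the other members most closely are shown because these genes moved together between arrays. Each runs from 250 bases before the gene's start to 50 bases after it (RefSeq, build GRCr8). Capitals mark GAGGAA, a form of the PU.1 site (called the PU.1 core here), and TGCTGA, the MAF half-site. Each is also marked as its reverse complement, TTCCTC or TCAGCA. The motifs do not overlap each other in these promoters. Cd5l lies at chr2:175088665-175088964 (+ strand), Cd68 at chr10:54882392-54882691 (- strand), C1qa at chr5:154419884-154420183 (- strand) and Clec4f at chr4:117696358-117696657 (- strand).
Cd5l: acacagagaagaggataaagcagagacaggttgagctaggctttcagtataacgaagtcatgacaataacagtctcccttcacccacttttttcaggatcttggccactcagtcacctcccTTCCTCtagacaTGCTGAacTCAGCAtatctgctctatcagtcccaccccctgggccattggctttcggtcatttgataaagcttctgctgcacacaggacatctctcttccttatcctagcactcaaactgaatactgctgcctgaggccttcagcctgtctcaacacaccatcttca
Cd68: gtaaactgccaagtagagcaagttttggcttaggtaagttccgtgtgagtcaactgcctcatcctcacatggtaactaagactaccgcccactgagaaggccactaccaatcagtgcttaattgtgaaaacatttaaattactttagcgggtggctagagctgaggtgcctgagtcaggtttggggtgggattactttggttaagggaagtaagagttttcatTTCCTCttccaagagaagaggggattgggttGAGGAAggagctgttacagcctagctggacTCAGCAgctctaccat
C1qa: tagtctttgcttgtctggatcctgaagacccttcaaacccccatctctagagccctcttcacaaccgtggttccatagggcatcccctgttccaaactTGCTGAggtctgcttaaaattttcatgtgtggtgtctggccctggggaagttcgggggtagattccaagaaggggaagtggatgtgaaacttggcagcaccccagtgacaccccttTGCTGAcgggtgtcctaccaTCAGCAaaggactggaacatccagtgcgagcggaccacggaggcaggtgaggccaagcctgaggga
Clec4f: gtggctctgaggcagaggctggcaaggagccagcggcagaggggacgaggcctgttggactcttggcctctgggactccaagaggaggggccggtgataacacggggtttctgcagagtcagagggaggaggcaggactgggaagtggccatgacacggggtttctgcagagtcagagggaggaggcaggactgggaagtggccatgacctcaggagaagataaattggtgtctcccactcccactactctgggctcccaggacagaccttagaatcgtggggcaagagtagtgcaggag

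The Cd5l promoter held the PU.1 core 129 bases before the start and a MAF half-site on each strand, 117 and 109 bases before it. The Cd68 promoter held the PU.1 core on both strands, 27 bases before and 5 bases after the start, and a MAF half-site at base 35 after it. C1qa had 3 MAF half-sites, 152, 36 and 16 bases before the start, and Clec4f had neither motif in this window. GAGGAA was present in 27.6% of all 33469 rat promoters of this length and in 6 of the 10 members' promoters. TGCTGA was present in 18.4% of all promoters and likewise in 6 of the 10. Only these exact letters were searched, so a promoter without them may hold other forms of these sites. A match of letters is a description and not a bound site.

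All 8 measured members gave signal in the upper part of the array's range in these livers. Their mean log2 levels lay between the 70.5th percentile of probe sets for Cd163 and the 95.9th for Clec4f. Alb, the albumin gene of hepatocytes, was at the 100th percentile. A percentile of signal depends on the probe set as well as on the RNA, so it shows that a probe set gave signal and does not rank the genes.

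No member passed the test of a difference from vehicle at any dose of TBB. At 550 mg/kg, where Cyp1a1, the drug-metabolising enzyme induced through the aryl hydrocarbon receptor, was 7.34 ± 0.24 higher on the log2 scale (SE; limma adjusted p = 7.69e-22), 0 of 8 members passed the test, against 0.499% of all 31042 probe sets. All 8 point estimates at 550 mg/kg were below vehicle, with a median of -0.22, beside a median of 0.0024 over all probe sets, 49.0% of which were below vehicle. The 8 estimates come from the same arrays and from genes that move together, so they are not 8 separate observations.

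Clec4f encodes a C-type lectin that, in rodents, is made by Kupffer cells and by few other cells. Its log2 level at 550 mg/kg was lowest at 9.65, 10.16 at the median and highest at 10.47. The 5 vehicle arrays read 10.41, 10.57, 10.43, 10.49 and 10.30. The lowest 550 mg/kg arrays lay below every vehicle array, but the ranges overlapped. The means were 10.10 ± 0.34 (SD, n = 6) at 550 mg/kg and 10.44 ± 0.10 (SD, n = 5) in vehicle. The difference was -0.34 (95% interval -0.75 to 0.07), and it had the smallest p of the 8 members (unadjusted p = 0.0996 and adjusted p = 0.681 by limma).

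Of the surface receptors, Csf1r, the receptor for CSF1 and IL-34, was at 7.34, 7.48 and 7.94 (lowest, median and highest) at 550 mg/kg. In vehicle it read 7.78, 7.74, 8.06, 7.69 and 7.69. Adgre1, an adhesion G protein-coupled receptor used as a macrophage marker, was at 6.27, 6.78 and 6.92 at 550 mg/kg. Its vehicle values were 6.89, 6.96, 7.39, 6.94 and 6.62. Both sets of ranges overlapped, and the differences were -0.24 ± 0.16 for Csf1r and -0.30 ± 0.24 for Adgre1 (SE; limma adjusted p = 0.732 and 0.802). Cd163, the scavenger receptor for haemoglobin bound to haptoglobin, was at 6.34, 6.59 and 6.95 (lowest, median and highest) at 550 mg/kg. Its vehicle arrays read 6.57, 6.85, 7.13, 6.56 and 6.64. These ranges overlapped too, and Cd163 differed by -0.12 ± 0.16 (SE; limma adjusted p = 0.896).

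Cd68 encodes macrosialin, a glycoprotein of the lysosome and endosome. It was at 7.85, 8.21 and 8.70 (lowest, median and highest) at 550 mg/kg, against 8.47, 8.42, 8.59, 8.43 and 8.31 in vehicle. The 550 mg/kg arrays lay on both sides of the vehicle arrays, and the difference was -0.21 ± 0.21 (SE; limma adjusted p = 0.852).

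The secreted products gave the same picture. Cd5l, a scavenger-type protein that macrophages release and that is known as apoptosis inhibitor of macrophage, was at 8.96, 9.54 and 10.14 (lowest, median and highest) at 550 mg/kg. The vehicle arrays read 9.64, 9.64, 10.04, 9.81 and 9.60. The difference was -0.16 ± 0.26 (SE; limma adjusted p = 0.918), and the gene's second, dimmer probe set gave -0.18 ± 0.37 (adjusted p = 0.942). C1qa and C1qb encode chains of C1q, the recognition part of the first complement component. C1qa was at 9.52, 9.86 and 10.16 (lowest, median and highest) at 550 mg/kg, against 10.19, 9.99, 10.25, 10.02 and 9.94 in vehicle. C1qb was at 9.16, 9.35 and 9.77 at 550 mg/kg, against 9.54, 9.53, 9.78, 9.59 and 9.41 in vehicle. For both, part of the 550 mg/kg arrays lay below the lowest vehicle array and the rest within the vehicle range. They differed by -0.22 ± 0.20 and -0.16 ± 0.19 (SE; limma adjusted p = 0.839 and 0.878).

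**Figure D1:**
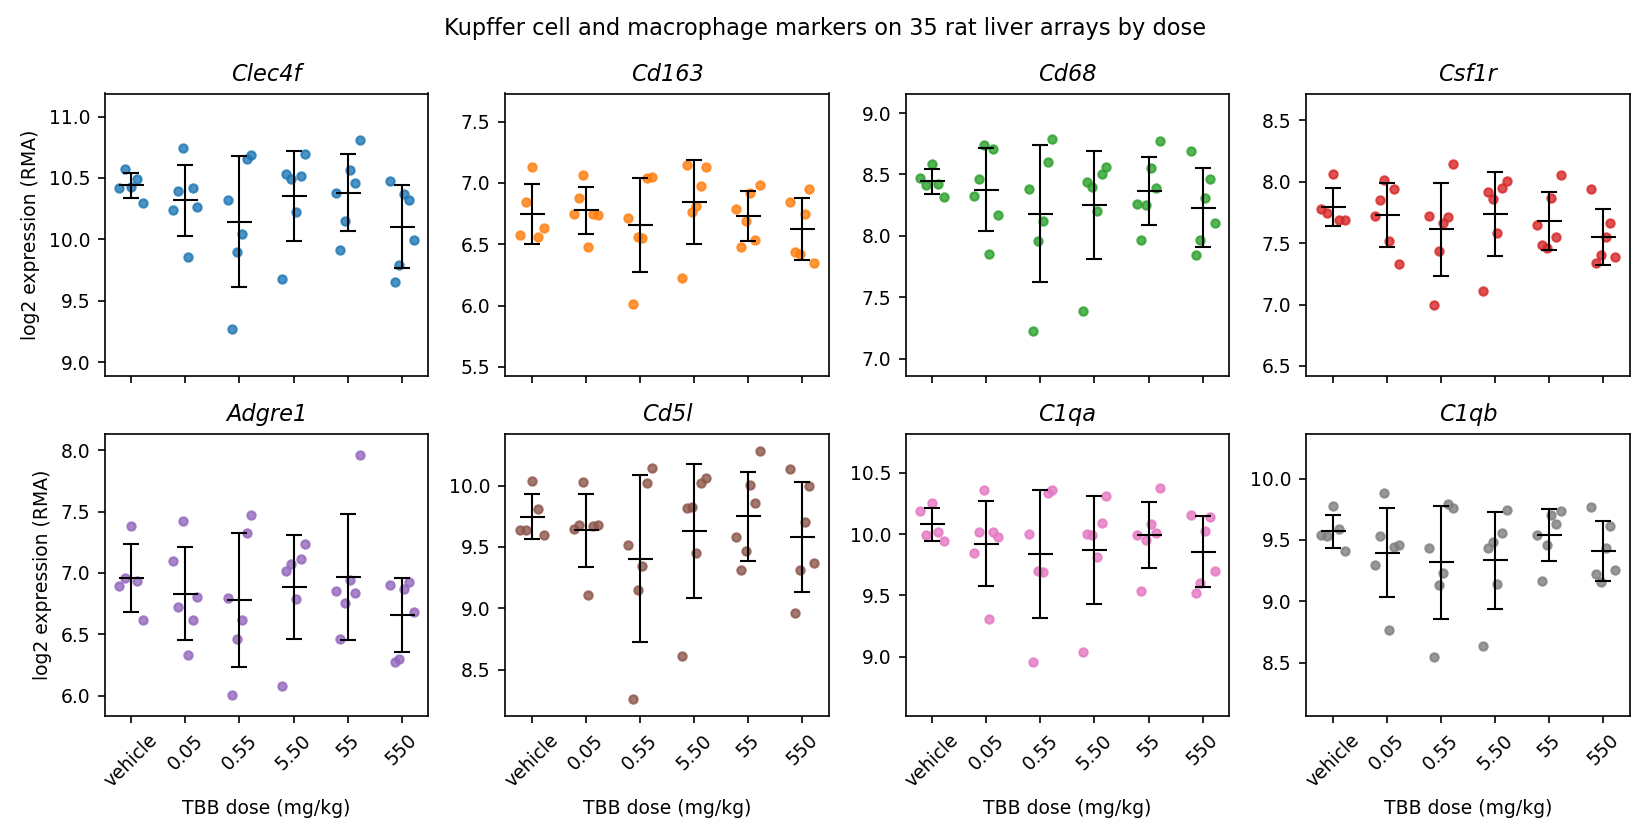
Log2 expression of each of the 8 members (one panel each) by TBB dose in mg/kg; each point is 1 array, the black dash and bar are the group mean and SD (n = 5 vehicle, n = 6 per dose), and every panel spans the same log2 width. The groups overlap at every dose for every member, and the widest spread is at 0.55 mg/kg.

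Followed over all doses, the levels moved little against the spread within groups (means ± SD of log2 values, n = 5 in vehicle and n = 6 at each dose). Clec4f averaged 10.44 ± 0.10 in vehicle, 10.32 ± 0.29 at 0.05 mg/kg, 10.14 ± 0.53 at 0.55 mg/kg, 10.36 ± 0.37 at 5.50 mg/kg, 10.38 ± 0.31 at 55 mg/kg and 10.10 ± 0.34 at 550 mg/kg. The receptor Csf1r averaged 7.79 ± 0.16 in vehicle, 7.73 ± 0.26 at 0.05 mg/kg, 7.61 ± 0.38 at 0.55 mg/kg, 7.74 ± 0.34 at 5.50 mg/kg, 7.68 ± 0.24 at 55 mg/kg and 7.55 ± 0.23 at 550 mg/kg. Both were highest in vehicle and lowest at 550 mg/kg, with means between that did not run in order of dose. Cd163 averaged 6.75 ± 0.24 in vehicle, 6.78 ± 0.19 at 0.05 mg/kg, 6.65 ± 0.38 at 0.55 mg/kg, 6.84 ± 0.34 at 5.50 mg/kg, 6.73 ± 0.20 at 55 mg/kg and 6.62 ± 0.26 at 550 mg/kg. Adgre1 averaged 6.96 ± 0.27 in vehicle, 6.83 ± 0.38 at 0.05 mg/kg, 6.78 ± 0.55 at 0.55 mg/kg, 6.88 ± 0.42 at 5.50 mg/kg, 6.97 ± 0.51 at 55 mg/kg and 6.66 ± 0.30 at 550 mg/kg. Cd163 was highest at 5.50 mg/kg and Adgre1 at 55 mg/kg. For Cd68 the means were 8.44 ± 0.10 in vehicle, 8.38 ± 0.34 at 0.05 mg/kg, 8.18 ± 0.56 at 0.55 mg/kg, 8.25 ± 0.44 at 5.50 mg/kg, 8.37 ± 0.28 at 55 mg/kg and 8.23 ± 0.32 at 550 mg/kg. For Cd5l they were 9.74 ± 0.18 in vehicle, 9.64 ± 0.30 at 0.05 mg/kg, 9.40 ± 0.68 at 0.55 mg/kg, 9.63 ± 0.54 at 5.50 mg/kg, 9.75 ± 0.36 at 55 mg/kg and 9.58 ± 0.45 at 550 mg/kg. These had their lowest means at 0.55 mg/kg, the group that holds the lowest array. C1qa averaged 10.08 ± 0.13 in vehicle, 9.92 ± 0.35 at 0.05 mg/kg, 9.84 ± 0.52 at 0.55 mg/kg, 9.87 ± 0.44 at 5.50 mg/kg, 9.99 ± 0.27 at 55 mg/kg and 9.86 ± 0.29 at 550 mg/kg. C1qb averaged 9.57 ± 0.13 in vehicle, 9.40 ± 0.36 at 0.05 mg/kg, 9.32 ± 0.46 at 0.55 mg/kg, 9.33 ± 0.39 at 5.50 mg/kg, 9.54 ± 0.21 at 55 mg/kg and 9.41 ± 0.24 at 550 mg/kg. The C1q chains were likewise lowest at 0.55 mg/kg and highest in vehicle. Neighbouring means in these orders lay closer together than the SD within groups.

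The lower doses gave the same result. The number of members called was 0 of 8 at 0.05, 0.55, 5.50 and 55 mg/kg, where 0%, 0%, 0% and 0.00644% of probe sets were called, in that order of dose. It was 0 of 8 for 550 against 55 mg/kg (0.686% of probe sets), for the slope on dose rank (0.171%) and for any difference among the 6 groups (0.741%). In each of these 8 comparisons the number of members with an unadjusted limma p below 0.05 was also 0, where 3.86% to 9.43% of all probe sets had such a p, so a count of 0 of 8 is near the background. The median difference from vehicle was -0.12 at 0.05 mg/kg, -0.25 at 0.55, -0.10 at 5.50, -0.05 at 55 and -0.22 at 550 mg/kg. These medians did not follow the order of dose, and all share the same vehicle arrays. Without 0.55 mg/kg replicate 2 and 5.50 mg/kg replicate 1, the lowest arrays of those groups, the median was -0.067 at 0.55 mg/kg and 0.061 at 5.50 mg/kg, and the count of members called stayed at 0. These arrays were chosen after the values were seen, and leaving out a group's lowest array can only raise its mean. Leaving out single arrays also turned the sign at 55 mg/kg, where the median ranged from -0.15 to 0.033, and kept it below 0 at 550 mg/kg, where it ranged from -0.29 to -0.14.

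The plot of differences by dose shows how wide the intervals are. The standard error of a member's difference from vehicle had a median of 0.20, against 0.085 over all probe sets. The interval for Cd5l at 550 mg/kg ran from -0.69 to 0.36, so both a fall and a rise within these bounds were compatible with these arrays. The gap between the highest and lowest of the 6 group means was 0.22 for Cd163 and 0.35 for Cd5l, the extremes of the 8 members. The vehicle mean was the highest of the 6 for 5 members (Clec4f, Cd68, Csf1r, C1qa and C1qb), and the lowest mean fell at 550 mg/kg for 4 members and at 0.55 mg/kg for the other 4. By the test of any difference among the groups, no order among them was resolved (limma adjusted p from 0.939 to 0.989).

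**Figure D2:**
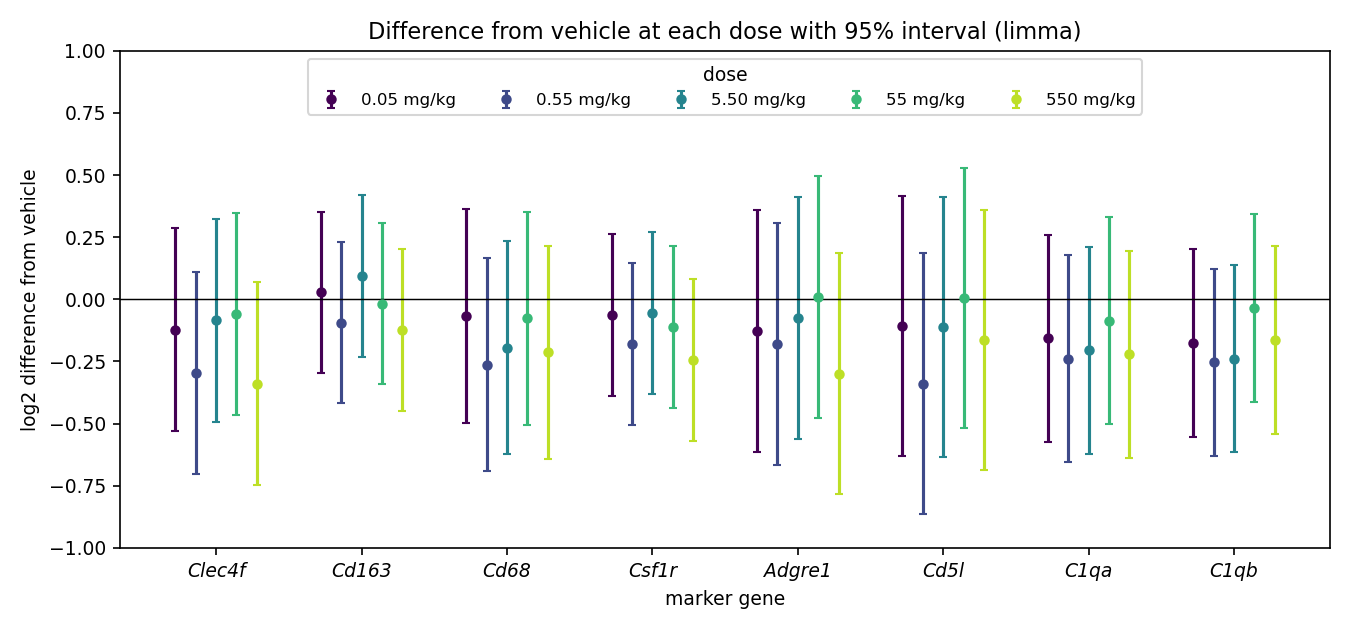
Log2 difference from vehicle for each member at each TBB dose, with limma's 95% interval; points above 0 are higher than vehicle. Every interval includes 0, and at 550 mg/kg all 8 points lie between -0.34 and -0.12.

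Between arrays of the same dose the members varied far more than most genes. Over all 35 arrays the highest level was 2.19-fold the lowest for Cd163 and 4.07-fold the lowest for Cd5l, with the other 6 members between. The SD within dose groups was 0.28 to 0.46 on the log2 scale for the 8 members, which placed them between the 94.4th and 98.4th percentiles of genes, whose median was 0.14. The same array, 0.55 mg/kg replicate 2, was the lowest of the 35 for all 8 members. The array 5.50 mg/kg replicate 1 ranked 2 or 3 from the bottom for all 8. As geometric means over the 8 members, these arrays were at 0.562-fold and 0.587-fold of their dose group's mean. At the other end, 0.05 mg/kg replicate 3 and 55 mg/kg replicate 6 were the highest of their groups for all 8 members, at 1.33-fold and 1.36-fold. The array farthest above its group mean was 0.55 mg/kg replicate 6, at 1.47-fold and highest of its group for 7 of 8 members, and replicate 5 of that group was at 1.36-fold. The 0.55 mg/kg group thus held arrays at both ends.

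The vehicle arrays were the closest together. The median SD of the members was 0.14 in vehicle, 0.32 at 0.05 mg/kg, 0.53 at 0.55, 0.41 at 5.50, 0.27 at 55 and 0.29 at 550 mg/kg. Vehicle had the smallest SD of the 6 groups for 7 of 8 members (Cd163 was the exception), as it did for 18.4% of all genes. The 0.55 mg/kg group had the largest for 8 of 8. The share of all genes with their largest SD there was not counted, so that count has no background beside it. The median SD over all genes differed little between groups, from 0.12 at 550 mg/kg to 0.14 at 5.50 mg/kg, with 0.13 in vehicle. Without its lowest array the median SD was 0.33 at 0.55 mg/kg, with 8 of 8 members still above vehicle, and 0.17 at 5.50 mg/kg, with 6 of 8. The members share arrays, so these counts describe 1 pattern, and no test of the spread was made.

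The members rose and fell together from array to array. After each dose group's mean was removed, the 28 pairs of members had Pearson r from 0.82 to 0.97 over 35 arrays, with a median of 0.90, and Spearman rho from 0.78 to 0.96. Over all 101054436 pairs of genes the median r was 0 and the 95th percentile 0.381, and 0.00795% of pairs reached the lowest value of a member pair. Every member pair had a two-sided permutation p of 1e-05 for r and for rho, with arrays permuted within dose groups, which is the smallest that 100000 permutations can give. Leaving out the 2 arrays farthest from the median of the first gene of a pair gave r from 0.74 to 0.96.

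The closest pair was C1qa and C1qb (r = 0.97), chains of 1 protein complex whose genes lie on either side of C1qc in GRCr8. Clec4f and Cd68 were at r = 0.96, as were Cd68 and C1qa and Clec4f and Cd5l. Csf1r and Adgre1 were the least alike, at r = 0.82. Csf1r was closest to Cd68 (r = 0.93), and Cd163 to C1qa (r = 0.91). Csf1r, Cd163 and Adgre1 had the lowest mean r with the other members (0.87, 0.88 and 0.87, against 0.92 to 0.93 for the other 5), given as a description. They also had the lowest mean log2 signal of the measured members (7.68, 6.73 and 6.84, against 8.30 to 10.29). The part of signal level in their lower r was not tested.

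**Figure D3:**
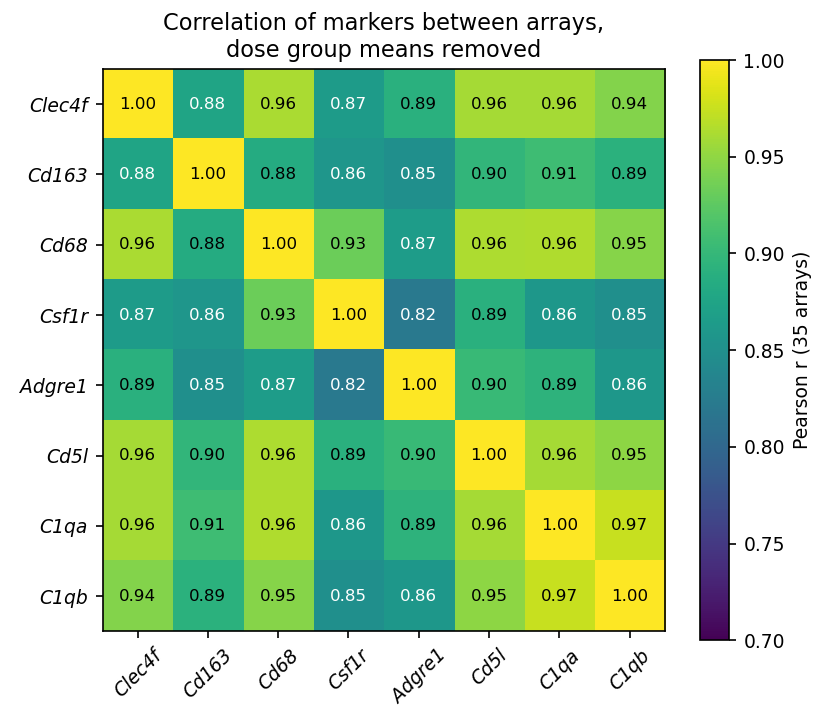
Pearson r between each pair of members over 35 arrays after removal of dose group means; colour and number both give r, and the colour scale starts at 0.7. The lowest value is 0.82 for Csf1r with Adgre1 and the highest 0.97 for C1qa with C1qb.

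To set the same co-variation against all genes, every gene on the array was fitted in the same way. These fits rest on the same deviations as the r values and count each pair in both directions, so they are no separate support. With each member in turn as a covariate beside dose group, 56 of 56 ordered pairs of members passed with a positive slope, and the largest adjusted p was 1.92e-06 (limma, over 14216 genes). The share of all genes that rose with the covariate was 2.85% for Clec4f, 2.87% for Cd163, 3.13% for Cd68, 2.97% for Csf1r, 2.90% for Adgre1, 2.98% for Cd5l, 3.41% for C1qa and 3.00% for C1qb. Ranked by r among 14216 genes, every other member stood within the first 55 places for every member. Outside the members, 295 of 14209 genes rose with all 8 members in turn, and 608 rose with at least 1.

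The size of the swing, as read by the main probe sets, differed between members. For each unit of log2 change in the mean of the other 7 members, Cd5l changed by 1.36, Adgre1 by 1.14, Cd68 by 1.07, C1qa by 1.03, Clec4f by 1.00 and C1qb by 0.90. Cd163 and Csf1r changed least, by 0.72 and 0.71. These slopes are a description without a test, and they may depend on the probe set as well as on the RNA. Adgre1 left the largest residual SD around its line, 0.19, against 0.081 for C1qa.

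**Figure D4:**
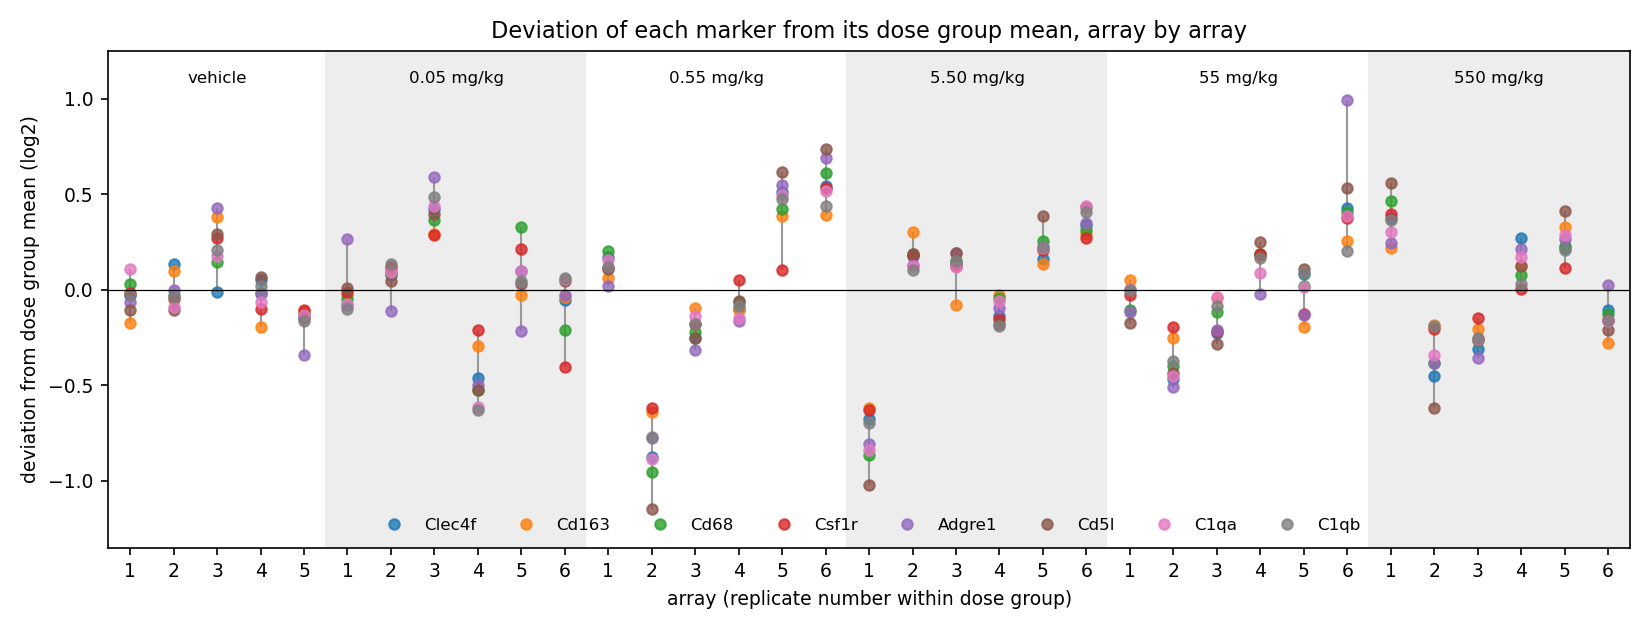
Deviation of each member from its dose group mean on each of the 35 arrays (log2), arrays ordered by dose group and labelled with their replicate number; coloured points are the 8 members and the grey line joins the lowest to the highest. The points of an array lie close together while arrays differ, with 0.55 mg/kg replicate 2 and 5.50 mg/kg replicate 1 lowest.

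Most pairs were positively correlated in every dose group. The median r of the 28 pairs was 0.80 in vehicle, 0.85 at 0.05 mg/kg, 0.99 at 0.55, 0.99 at 5.50, 0.89 at 55 and 0.93 at 550 mg/kg. In the 5 dosed groups 28 of 28 pairs were positive, and in vehicle, where the range of the members' mean was narrowest (0.39 on the log2 scale), 27 of 28 were. These values rest on 5 or 6 arrays each and are given without a test. Without the lowest array the median r was 0.98 at 0.55 mg/kg and 0.95 at 5.50 mg/kg.

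Some technical readouts moved with the members. Over 35 arrays, the deviation of the members' mean had r = 0.36 (Spearman rho 0.27) with the SD of all log2 values of an array, r = -0.41 (rho -0.28) with the array median and r = -0.34 (rho -0.24) with the 3' minus 5' difference of the beta-actin control probe sets, a sign of RNA or labelling quality. The GAPDH and hexokinase differences gave r = -0.21 and -0.16 (rho -0.14 and -0.11). These are descriptions with no p. The array 5.50 mg/kg replicate 1 had the smallest array SD (2.30), the highest actin difference (1.60) and the highest GAPDH difference (0.025). The array 0.55 mg/kg replicate 2, lowest for all members, was at neither end of any of these readouts. With the array SD regressed out, the median r of the member pairs was 0.89. With array medians subtracted it was 0.90. The part of the 3' minus 5' differences in the result was not tested. Correlations of whole arrays lay between 0.988 and 0.996, and no 2 arrays were identical. No slide, scan date or extraction batch was given in the sources used here.

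Genes outside the 8 that followed them most closely included several made by macrophages. The 10 genes with the highest r to the mean of the members' deviations over 35 arrays were Ccl6 (0.98), C1qc (0.98), Ctss (0.97), Aif1 (0.97), Ifitm1 (0.96), Cybb (0.96), Anxa3 (0.96), Lgmn (0.95), Fgl2 (0.95) and Ms4a6bl1 (0.94). Ccl6 is a chemokine of rodents, C1qc the remaining chain of C1q, Ctss and Lgmn lysosomal proteases, Aif1 the actin-binding protein IBA1 of macrophages and microglia, and Cybb the catalytic subunit of the phagocyte NADPH oxidase. None passed the test at 550 mg/kg against vehicle, with differences of -0.39 to -0.07 (limma adjusted p from 0.768 to 0.908). The most opposite genes were Ikzf4 (r = -0.72), Tmem80 (-0.65) and Prpf40b (-0.65).

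Per member, the nearest gene outside the members was Ccl6 for Clec4f, Cd5l and C1qb, C1qc for C1qa and Ctss for Cd68. It was Cybb for Csf1r, Lgmn for Adgre1 and Lilra5 for Cd163. The lowest of these r values was 0.92 (Csf1r with Cybb) and the highest 0.98 (Cd5l with Ccl6).

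A list of 25 other measured macrophage and myeloid genes followed Clec4f in most cases: 17 of 25 rose with it within dose groups and 0 fell, where 2.85% of all genes rose and 0.169% fell. The followers included Tyrobp and Fcer1g, adaptors of activating receptors, Axl, a receptor for dying cells, Folr2, Hmox1, the haem-degrading enzyme, and Spic, a factor of iron-recycling macrophages. The 8 that did not pass were Mrc1, Cd14, Lyz2, Slc40a1, Mertk, Itgam, Lilrb4 and Stab2. Stab2, a scavenger receptor, is also a marker of sinusoidal endothelium. Cd14, the co-receptor for bacterial endotoxin, had r = -0.08 with the members, and Lyz2, lysozyme, r = -0.28. Cd14 differed from vehicle by 0.55 ± 0.14 at 550 mg/kg and Lyz2 by -0.51 ± 0.19 (SE; limma adjusted p = 0.067 and 0.340), neither past the threshold.

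Of 9 other measured genes of the CSF1 receptor pathway, 3 rose with Clec4f, where 2.85% of all genes rose. These were Tyrobp, Irf8, a transcription factor of the myeloid line, and Maf. The ligands Csf1 and Il34 did not pass (r = -0.20 and 0.22 with the members' mean). The count called was 0 of 9 at 550 mg/kg, where 0.499% of all probe sets were called. The smallest p belonged to Egr2 (0.15 ± 0.09, limma adjusted p = 0.687). Of 7 other genes of complement C1, its inhibitors and its binding partners, C1qc alone rose with Clec4f. The proteases C1r and C1s and the inhibitor Serping1, which hepatocytes make in quantity, did not pass (r = 0.37, 0.47 and 0.45). Lrp1 had the smallest p of that list at 550 mg/kg (0.25 ± 0.092, limma adjusted p = 0.330).

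Of 12 genes of monocytes recruited to liver, 3 rose with Clec4f (Plac8, Ly6c and Gpnmb), where 2.85% of all genes rose. Ccr2, the receptor that draws monocytes into tissue, had r = 0.15, and Trem2, a receptor of lipid-associated macrophages, r = -0.29. Of 12 cytokines and chemokines, Il18, Il1b and Ccl3 rose with Clec4f, and Tnf (r = -0.12), Il10 (0.12) and Tgfb1 (0.17) did not pass. At 550 mg/kg 0 of 12 genes were called in each of these lists, near the background of 0.499% of all probe sets. Cxcl1, a neutrophil chemokine, was 0.92 ± 0.42 higher (SE; limma adjusted p = 0.514), and Spp1, osteopontin, 0.20 ± 0.14 (0.760).

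Most markers of other liver cells did not rise with Clec4f, and neither did most genes: 2.85% of all genes rose and 0.169% fell. The number that rose with Clec4f was 0 of 11 for hepatocytes, 0 of 11 for stellate cells, 0 of 5 for cholangiocytes, 0 of 7 for neutrophils and 0 of 3 for red cells. It was 1 of 9 for sinusoidal endothelium (Fcgr2b, an inhibitory Fc receptor) and 4 of 12 for lymphocytes (the cytotoxic genes Prf1, Gzmb and Klrd1, and Cd8a). A count of 0 in lists this short is near the share of all genes, while the lymphocyte count lies above it. No gene of these lists fell with Clec4f. The mean of each list had r = -0.08 for hepatocytes, -0.19 for stellate cells, 0.54 for endothelium, 0.62 for lymphocytes, 0.06 for cholangiocytes, 0.26 for neutrophils and -0.19 for red cells. The mean of the lymphocyte list ranged from 4.68 to 5.31 and that of the endothelial list from 7.81 to 8.11 on the log2 scale.

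**Figure D5:**
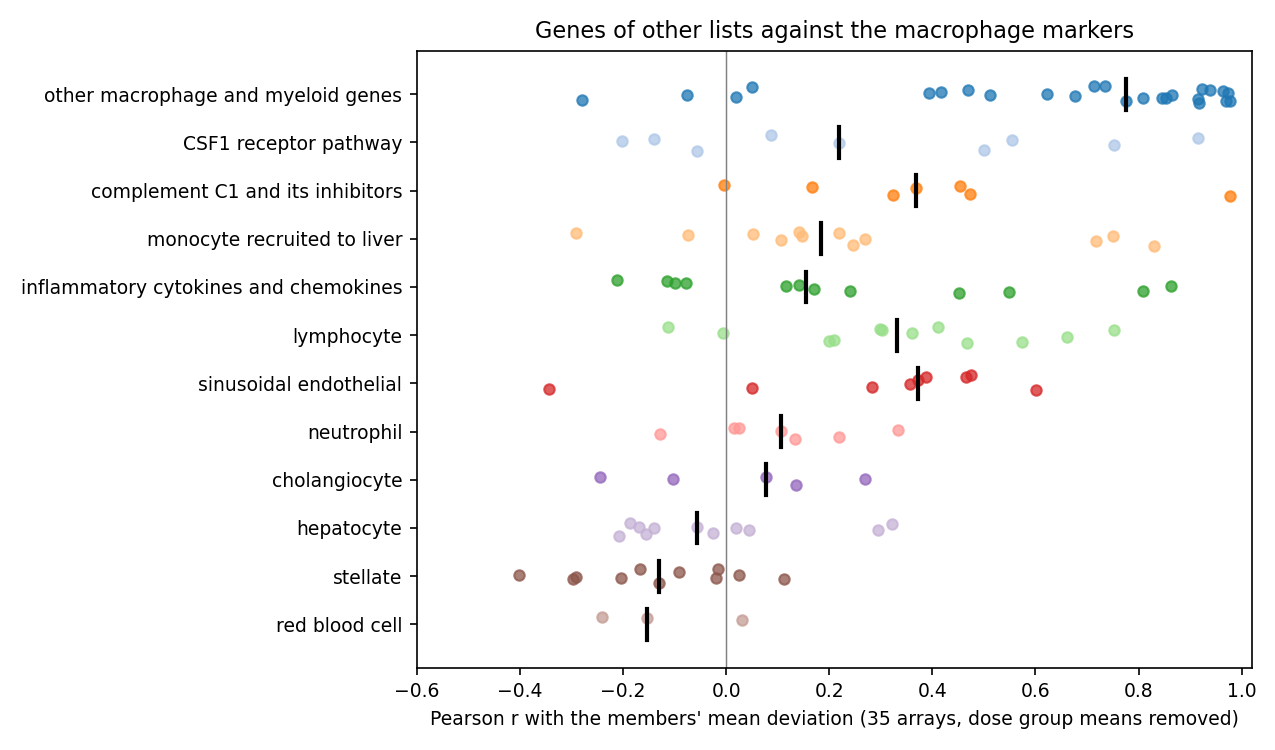
Pearson r of each gene (points) of 12 lists with the mean deviation of the members over 35 arrays after removal of dose group means, and each list's median (black bar). Points of the macrophage list reach 0.98, and hepatocyte and stellate genes centre near or below 0. The medians of the sinusoidal endothelial and lymphocyte lists lie between, at 0.37 and 0.33. With a single member, the median r over all genes outside the members was 0.013 to 0.023.

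At 550 mg/kg 1 gene of these lists was called, Apoa1, the main protein of high-density lipoprotein, which fell by 0.51 ± 0.062 on the log2 scale (SE; limma adjusted p = 7.30e-06). Of all probe sets, 0.499% were called at this dose. The smallest p in the other lists belonged to Stab1 (-0.24 ± 0.091), Pdgfrb (-0.30 ± 0.15), Spp1, Cd3g (-0.31 ± 0.12), Lcn2 (0.37 ± 0.22) and Hbb (-0.46 ± 0.15), none past the threshold. The genes used to check the treatment, Cyp1a1, Cyp1a2, Nqo1 and Acot1, rose in all 6 arrays above all 5 vehicle arrays, and had r between -0.03 and 0.34 with the members' mean.

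With a member as covariate, in fits added after the co-variation was seen, the comparison at 550 mg/kg asks another question. It tests whether a member differs from vehicle relative to the covariate, since the part of a change that goes with the covariate is removed. This makes it no test of the members against vehicle. The median SE of the other members' difference at 550 mg/kg was then 0.065 to 0.11. The number of other members called was 0 of 7 with each covariate, against 1.35% of all genes called with Clec4f as covariate, 1.30% with Cd163, 1.41% with Cd68, 1.27% with Csf1r, 1.39% with Adgre1, 1.34% with Cd5l, 1.44% with C1qa and 1.34% with C1qb. The direction depended on the covariate. With Cd5l as covariate, 0 of the other 7 members were above 0 and Clec4f differed by -0.22 ± 0.063 (SE; limma adjusted p = 0.090, the smallest of the 56). With Clec4f as covariate, 6 of 7 were above 0 and Cd5l differed by 0.26 ± 0.081 (SE; limma adjusted p = 0.133).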

How the data were processed

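The authors deposited log2 expression values per probe set made with RMA (affy), per the submitters' processing notes, which give no versions. The chip definition is not given in the sources used here. RMA shares one distribution across arrays, so a change in total RNA cannot be seen. Of 31099 probe sets, 57 controls were left out. GEO's platform annotation paired 20826 with 1 gene symbol, 436 with several and 9780 with none here, and all 8 measured members matched RefSeq by Entrez number.

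The main test was limma 3.58.1 in R 4.3.3, with 1 mean per dose group over 35 arrays and Benjamini-Hochberg adjustment over 31042 probe sets, two-sided at 0.05. Co-variation used deviations from dose group means, with each gene's brightest probe set, and limma with a member as covariate. The same fits were tested on simulated data. Noise there was drawn independently for each probe set, so the co-variation of the members was not part of it. Members and lists were chosen with earlier results of these data known. Named genes were all measured members, the 10 most and 3 least like genes, and each member's nearest gene outside the members. Per list they were the genes called at 550 mg/kg or otherwise the one with the smallest p. Others named from a list were chosen after their values were seen. Alternatives covered scaling, a filter on the dimmest 40% of probe sets, variance moderation, array weights, probe set choice and arrays left out.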

Additional observations from a re-analysis of the deposited data

Results flagged for a closer look

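Of 54 dose groups of a member or of the members' mean, 3 had 1 array far from the rest, where chance flags about 1 in 20. Cd68 on 5.50 mg/kg replicate 1 was at 7.39, against 8.20 for the next lowest array of its group. Csf1r on vehicle replicate 3 was at 8.06, against 7.78 for the next highest. Adgre1 on 55 mg/kg replicate 6 was at 7.96, against 6.95 for the next highest.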

How the results depend on the processing

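The number of members called was 0 in every comparison under every alternative run (those with a member as covariate test differences relative to that member), and 56 of 56 ordered member pairs passed under every alternative in which they were fitted. With the replicate number as a block, 0 members were called and the median pairwise r was 0.90. Of 85 same-numbered pairs of arrays, 17 had a correlation of deviations over 0.1, and the median of the 85 was -0.009. These values alone do not show whether the numbers pair the arrays. The median pairwise r ranged from 0.873 to 0.912 when single arrays were left out, and was 0.841 without the 2 arrays farthest from the median, which are also the lowest arrays of their groups (0.841, added after seeing the data). The cause was not tested.

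Some differences turned their sign, and since no member's difference passed the test in any setting, none of these had passed either. Cyclic loess gave Cd163 at 55 mg/kg as 0.0033. Array weights gave Csf1r and Adgre1 at 5.50 mg/kg as 0.00893 and 0.00538, and Cd163, Adgre1 and Cd5l at 55 mg/kg as 0.011, -0.025 and -0.026. The replicate block gave Adgre1 and Cd5l at 55 mg/kg as -0.071 and -0.055. The mean of both probe sets gave a Cd5l slope of 0.0064. Without both lowest arrays, Cd163 at 0.55 mg/kg was 0.035, and at 5.50 mg/kg Clec4f was 0.050, Csf1r 0.071, Adgre1 0.087 and Cd5l 0.091. Leaving out single arrays gave these ranges: at 0.05 mg/kg, Cd163 -0.031 to 0.12, Cd68 -0.14 to 0.038 and Csf1r -0.12 to 0.018; at 0.55 mg/kg, Cd163 -0.17 to 0.035; at 5.50 mg/kg, Clec4f -0.15 to 0.050, Csf1r -0.11 to 0.071, Adgre1 -0.16 to 0.087 and Cd5l -0.20 to 0.091; at 55 mg/kg, Clec4f -0.15 to 0.033, Cd163 -0.068 to 0.078, Cd68 -0.16 to 0.0022, Adgre1 -0.19 to 0.12, Cd5l -0.10 to 0.094, C1qa -0.16 to 0.0047 and C1qb -0.074 to 0.041; for the slope, Cd5l -0.019 to 0.013 and C1qb -0.018 to 0.0021. At 550 mg/kg no member's difference turned its sign under any alternative without a covariate.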
